A study of Mus musculus with 36 samples.

Results

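The regions described here carried a called peak of H3K36me3, trimethylation of lysine 36 of histone H3, in hippocampus of CKp25 mice at both times sampled and in neither control list. The 4 H3K36me3 peak lists were merged into 220489 regions. A region was kept when both CKp25 lists held a peak of −log10 p of at least 5 there and neither CK list held any peak. That left 2132 regions, 0.967% of all merged regions. They are called gained regions below, which says only how the peaks were listed. The regions were thus chosen by the −log10 p and presence of H3K36me3 peaks in all 4 lists, and the presence or strength of H3K36me3 at these regions is a description and was not tested.

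Chromatin immunoprecipitation sequencing of 7 histone marks was done on hippocampus of female mice labelled as 3 months old. CK-p25 animals carry a pair of transgenes that switch on p25, the shortened and overactive form of a Cdk5 activator, in the adult forebrain, and the CK animals were their control littermates. Each mark had 1 peak list for CK and 1 for CKp25 at 2 weeks after induction, and the same at 6 weeks, which makes 28 lists. The p25 transgene is expressed in forebrain neurons, while the tissue is whole hippocampus. More cells of a type and more mark per cell therefore cannot be told apart, nor can fewer cells and less mark per cell. The files do not say how many animals went into a list. The labels name more than 1 antibody lot for H3K36me3 and do not say which list used which, so lot and group cannot be told apart.

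H3K36me3 is placed by the methyltransferase SETD2, which travels with elongating RNA polymerase II, and it covers the bodies of transcribed genes. H4K20me1, monomethylation of lysine 20 of histone H4, is also found along transcribed gene bodies. H3K4me3 marks promoters, H3K4me1 marks enhancers and the flanks of promoters, and H3K27ac marks active elements of both kinds. H3K27me3 and H3K9me3 are marks of Polycomb-repressed chromatin and of heterochromatin. No gene annotation of the build of these lists (mm9, the same assembly as NCBIM37) was used here, so regions are given by position alone and no gene is named.

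The H3K36me3 lists held 187168 peaks for CK at 2 weeks, 194046 for CK at 6 weeks, 202563 for CKp25 at 2 weeks and 206413 for CKp25 at 6 weeks. They covered 168, 158, 183 and 170 Mb. Both CKp25 lists were therefore longer than both CK lists. The read depth behind the lists is unknown, so a missing peak shows only that none was called. With 1 list per group there is no replicate error, and no difference below has a test.

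The mirror rule, a peak of at least 5 in both CK lists and none in either CKp25 list, gave 795 regions, or 0.361%, here called lost regions. Gained regions outnumbered them 2.68 to 1. With every list cut to its 187168 highest peaks, the threshold of 5 gave 2260 gained and 1134 lost regions, a ratio of 1.99. Without the threshold, the lists of equal length gave 6925 and 4775, a ratio of 1.45. The excess of gained regions was thus smaller at equal list length, and its direction was the same. At a single time many more regions met the rule: 16262 were gained by the 2-week lists alone and 19226 by the 6-week lists alone. The regions gained at both times were 13.1% of the first number and 11.1% of the second. The lost regions were 7.34% of the 10832 lost by the 2-week lists alone and 7.18% of the 11069 lost by the 6-week lists alone.

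Most gained regions were short and of modest strength. The −log10 p and the fold enrichment over whole cell extract are the authors' values for each peak and serve here only to describe peaks within a list. In the CKp25 2-week list the best peak in each gained region had a −log10 p from 5.04 to 24.01, with a median of 6.47. In the CKp25 6-week list it ranged from 5.01 to 19.0, with a median of 6.14. The median fold enrichment was 2.87 at 2 weeks and 2.91 at 6 weeks. Regions with a peak in all 4 lists, of which there were 86983, had medians of 10.6 and 9.64 in the same lists. Many values were tied: 322 of the gained regions had a −log10 p of 5.42 at 2 weeks and 269 had 5.11 at 6 weeks. Only 18 gained regions reached a value of 10 in both lists, against 6 lost regions in the CK lists.

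The median gained region was 518 bases wide, with a range from 234 to 4507. The lost regions had a median of 449 bases and the regions present in all 4 lists one of 1385. A width of 1000 bases or more was reached by 191 gained regions, or 8.96%, and by 18 lost regions, or 2.26%. All 13 of the changed regions of at least 2000 bases were gained. Together the gained regions covered 1.30 Mb. The summits of the best peaks at the 2 times lay a median of 89.5 bases apart, and 76.5% of the pairs lay within 200 bases. The summit distance and the width were not part of the rule, but both depend on the peaks that the rule picked.

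At the threshold, the 3 regions just inside had a −log10 p of 5.01 in the 6-week list: chr11:54568715-54569060, chr15:68923118-68923573 and chr15:95655080-95655763. Their 2-week values were 6.21, 5.37 and 6.28. The 3 regions just outside had 4.99 in the 2-week list: chr10:59009077-59009596, chr5:124388130-124389004 and chr8:126771741-126772281. Their 6-week values were 6.40, 7.42 and 5.56. The smaller of the 2 values was thus nearly the same on either side of the limit, 5.01 against 4.99, and the limit marks no clear break in strength.

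Most gained regions lay in gaps between, or at the edge of, H3K36me3 peaks that the CK lists already held. The nearest CK peak lay a median of 482 bases away. Of the 2132 regions, 1386 (65.0%) had CK peaks within 5000 bases on both sides, 527 (24.7%) had one on 1 side, and 219 (10.3%) had none within 5000 bases. Of the lost regions, 619 (77.9%) lay between CKp25 peaks and 28 (3.52%) had none within 5000 bases, and their median distance was 311 bases. At 50000 bases or more from any peak of the other genotype there were 33 gained and 5 lost regions. The plot of distances shows that gained regions lay farther from CK peaks than lost regions from CKp25 peaks at each distance drawn. The CKp25 lists are also the longer ones, which runs along with this difference, and the part of list length in it was not tested.

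**Figure D1:**
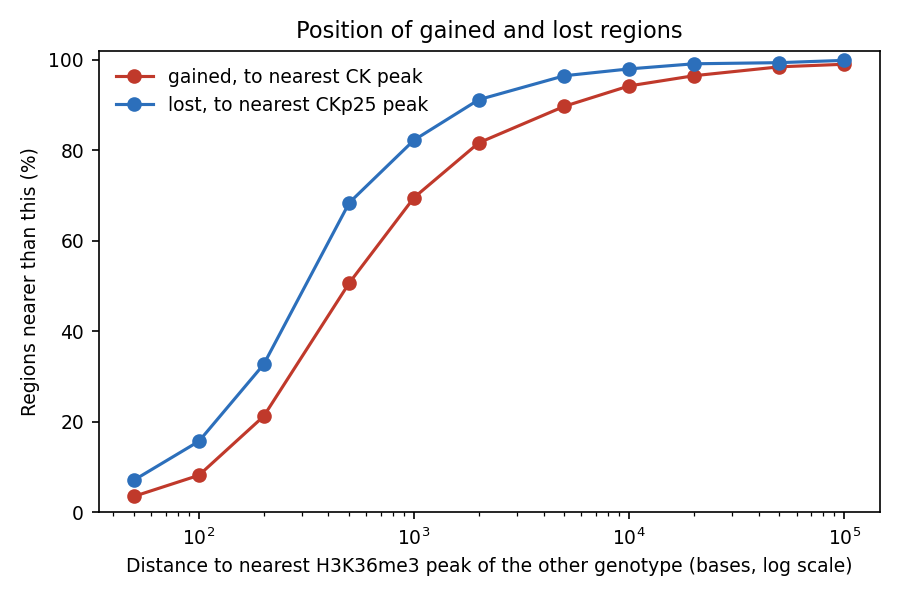
Cumulative share of regions (vertical axis, %) whose nearest H3K36me3 peak of the other genotype is closer than the distance on the horizontal axis (bases, log scale), for the 2132 gained regions (red, to CK peaks) and the 795 lost regions (blue, to CKp25 peaks). Within 500 bases lie 50.7% of the gained and 68.4% of the lost regions.

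The neighbourhood differed in the same direction as the regions themselves. In the 10000 bases on each side of a gained region, H3K36me3 peaks covered on average 23.7% of the bases in the CK 2-week list and 22.0% in the CK 6-week list. The CKp25 lists covered 30.9% and 29.96% of the same flanks. These flanks can hold other gained regions, since 20.6% of the gained regions had another within 10000 bases. The CKp25 lists also covered more of the genome, 183 and 170 Mb against 168 and 158 Mb in CK. The part of either in the gap was not tested. Around lost regions the 4 shares were 28.0%, 25.3%, 28.5% and 24.7%, with no such gap between genotypes. Around the 219 gained regions that had no CK peak within 5000 bases, the CK lists covered 1.97% and 1.99% of the flanks and the CKp25 lists 12.1% and 13.8%. The definition of those 219 regions makes the CK values low. The CKp25 values are not free of the rule either, since these flanks can hold other gained regions. Of the 219 regions, 62 lay in chains with one another.

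Gained regions were found on every autosome and on the X chromosome. Chromosome 2 held the most, 212, or 9.94% of them against 8.27% of all merged regions. The share of a chromosome's own regions that was gained was 1.196% on chromosome 17, 0.713% on chromosome 13 and 0.701% on the X chromosome, where there were 30 gained and 31 lost regions.

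The other marks were not used by the rule. H4K20me1, the other gene-body mark, was the most frequent of them at gained regions. It had a peak at 40.4% of them in the CK 2-week list (95% Clopper-Pearson interval 38.3 to 42.6) and at 38.9% in the CK 6-week list (36.9 to 41.0). The shares in the CKp25 lists were 43.0% at 2 weeks (40.9 to 45.1) and 49.9% at 6 weeks (47.7 to 52.0). These intervals cover counting error only, and neighbouring regions are not independent. At lost regions the shares went the other way, from 51.7% and 49.4% in CK to 42.0% and 42.4% in CKp25. At regions in all 4 H3K36me3 lists they were 70.2% and 68.4% in CK and 65.1% and 67.6% in CKp25. Over all merged regions the shares were 57.0% and 55.6% in CK and 52.4% and 55.5% in CKp25. Gained regions thus had H4K20me1 less often than H3K36me3 regions in general in each of the 4 lists. A mark was counted at 1 base of overlap, so these shares also depend on region width. Of the gained regions 8.96% reached 1000 bases, against 28.2% of all merged regions, with medians of 518 and 535 bases. The part of width in the lower shares was not tested. The whole H4K20me1 lists were shorter in CKp25, with 237443 and 254665 peaks against 269327 and 257468.

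The marks of promoters and enhancers were less frequent and differed by smaller amounts. H3K4me1 was at 19.7% and 20.1% of gained regions in CK and at 23.0% and 23.3% in CKp25, against 26.5%, 26.3%, 27.1% and 25.8% of all merged regions in the same order of lists. For H3K4me3 the values were 7.27% and 7.88% in CK and 8.63% and 10.1% in CKp25, against 8.53%, 9.67%, 9.88% and 10.5% of all merged regions. The H3K4me3 lists were also longer in CKp25, with 89350 and 88299 peaks against 75489 and 83033. H3K27ac was at 15.3% and 13.7% in CK and at 15.4% and 17.1% in CKp25, against 19.7%, 17.4%, 18.6% and 18.9% of all merged regions. These 3 marks were thus less frequent at gained regions than over all merged regions in every list. H3K27me3 was at 2.02% and 1.97% in CK and at 1.08% and 1.17% in CKp25, against 1.35%, 1.51%, 0.921% and 1.31% of all merged regions. H3K27me3 lists, too, were shorter in CKp25, with 76621 and 104196 peaks against 115841 and 119727. H3K9me3 was at 1.74% and 1.83% in CK and at 1.64% and 2.16% in CKp25, against 1.83%, 1.93%, 1.44% and 2.25% of all merged regions, and is the mark whose direction differed between the times. No peak of any other mark in any of the 24 lists overlapped 687 gained regions, or 32.2%, against 31.2% of the lost regions, 14.7% of the regions in all 4 H3K36me3 lists and 23.8% of all merged regions. All these shares depend on region width as well, which differed between the sets, and its part was not tested.

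**Figure D2:**
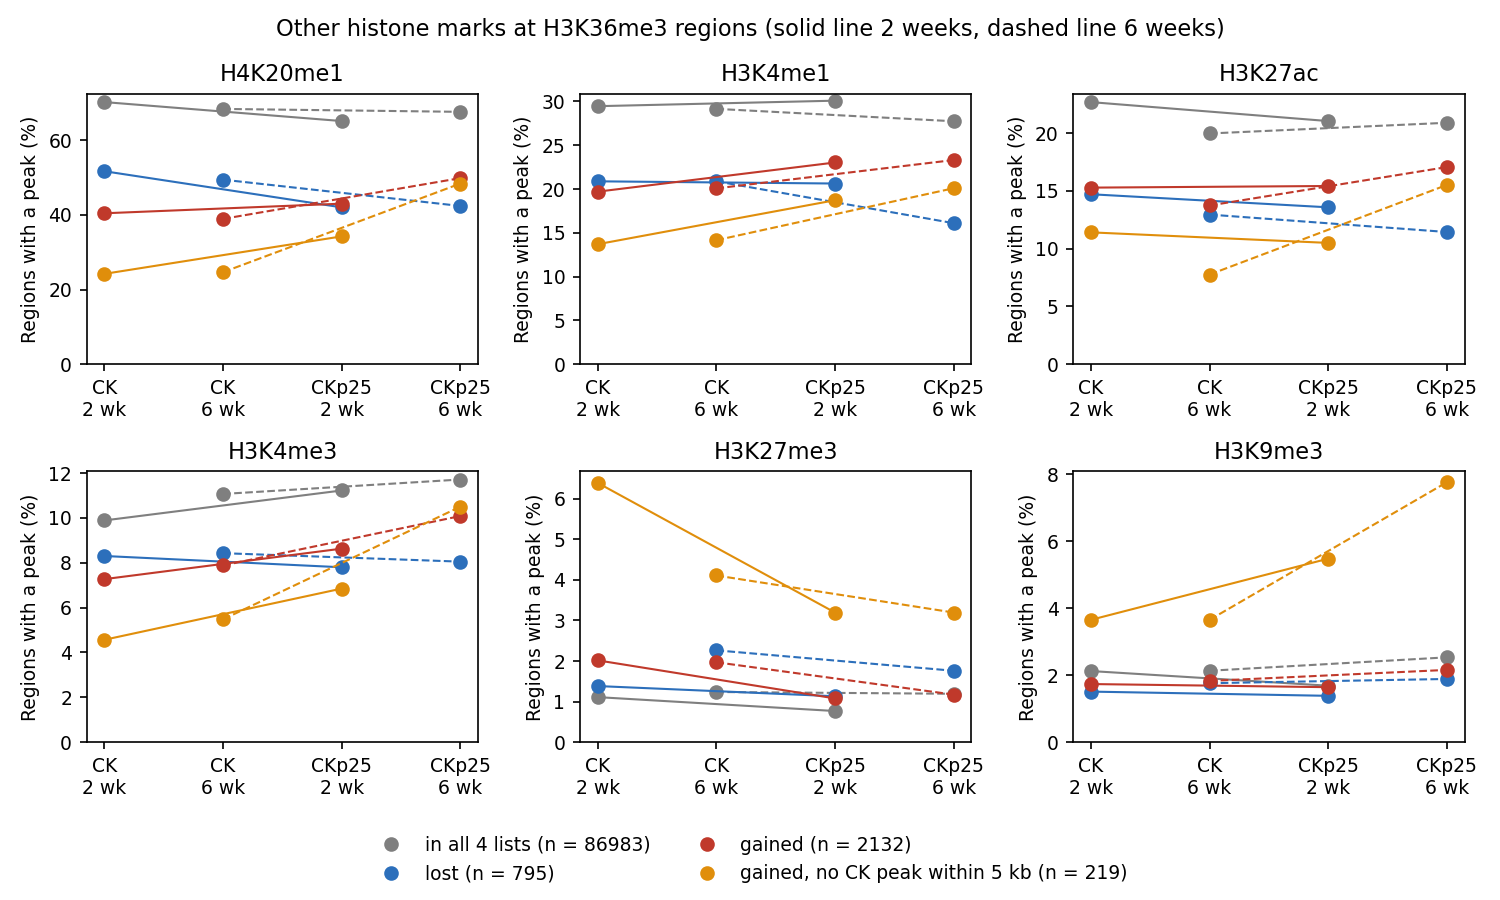
Share of regions with a peak of each other mark (vertical axes, %, from 0) in the 4 lists, for gained regions (red), the gained regions with no CK peak within 5000 bases (orange), lost regions (blue) and regions in all 4 H3K36me3 lists (grey). The lines join CK to CKp25 at 2 weeks (solid) and 6 weeks (dashed); for H4K20me1 the red and orange lines go up and the blue lines go down.

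Taken region by region, H4K20me1 followed the same pattern as H3K36me3 more often than it followed the opposite one. At 109 gained regions, or 5.11% (4.22 to 6.13), H4K20me1 had a peak in both CKp25 lists and in neither CK list, against 1.18% of all merged regions. The opposite pattern, a peak in both CK lists only, was found at 22 gained regions, or 1.03%, against 2.04% of all merged regions. The lost regions mirrored this, with 5 regions in the first pattern and 32 in the second. The share of gained regions with the first pattern was thus above the background and the share with the second below it. The largest class was still the unchanged one: 646 gained regions, or 30.3%, had an H4K20me1 peak in all 4 lists, and 891 (41.8%) had none.

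For the remaining marks the same pattern was rarer. H3K4me1 had a peak in both CKp25 lists only at 38 gained regions, 1.78% against a background of 1.26%, and in both CK lists only at 13, or 0.610% against 1.21%. H3K27ac showed these patterns at 29 regions (1.36% against 1.13%) and at 14 (0.657% against 0.986%), which is near the background. H3K4me3 showed them at 16 regions (0.750% against 0.668%) and 6 regions (0.281% against 0.237%), also near it. H3K27me3 showed them at 1 region (background 0.0594%) and 4 regions (background 0.178%). H3K9me3 showed them at 5 regions (background 0.109%) and 4 regions (background 0.143%). Of the 2132 gained regions, 163 (7.65%) had 1 other mark with a peak in both CKp25 lists only, 12 had 2 such marks, 1 had 3 and 2 had 4. Marks were not counted in this way over all merged regions, so these numbers have no background beside them.

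Each other mark was also merged into regions of its own and passed through the same rule, and these regions were compared by position. H4K20me1 had 1426 gained regions, or 0.525% of its 271577, and 3985 lost ones, or 1.47%, so this mark by itself was lost more often than gained. Within 10000 bases of a gained H3K36me3 region there was a gained H4K20me1 region in 218 cases, or 10.2%, against 3.83% of all merged H3K36me3 regions. A lost H4K20me1 region lay as near in 105 cases, or 4.92%, against 9.62%. Direct overlap with a gained H4K20me1 region was found for 51 gained regions, or 2.39%, against 0.378%, and with a lost one for 7, or 0.328%, against 0.882%. Seen from the other mark, 51 of the 1426 gained H4K20me1 regions (3.58%) overlapped a gained H3K36me3 region and 242 (17.0%) lay within 10000 bases of one. Of the 3985 lost H4K20me1 regions, 7 (0.176%) overlapped a gained H3K36me3 region and 119 (2.99%) lay as near. Near lost H3K36me3 regions the order was reversed: 24 of the 795 (3.02%) had a gained H4K20me1 region within 10000 bases and 112 (14.1%) a lost one.

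By themselves, H3K4me3 had 1767 gained and 496 lost regions (1.61% and 0.453% of its merged regions), H3K27ac 2493 and 1321 (1.11% and 0.588%) and H3K4me1 1892 and 2500 (0.668% and 0.882%). The repressive marks were lost more often than gained, with 480 gained and 1205 lost regions for H3K27me3 (0.221% and 0.554%) and 460 and 1548 for H3K9me3 (0.259% and 0.87%).

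Regions of the promoter and enhancer marks gained by the same rule also lay near gained H3K36me3 regions somewhat above the background. A gained H3K27ac region was within 10000 bases of 124 of them (5.82% against 4.15%), and a gained H3K4me1 region of 107 (5.02% against 3.71%). For H3K4me3 the number was 88 (4.13% against 2.62%). Lost regions of these marks lay as near in 41 cases for H3K27ac (1.92% against 2.42%), 68 for H3K4me1 (3.19% against 4.49%) and 17 for H3K4me3 (0.797% against 0.997%). Of the repressive marks, H3K27me3 had a gained region near 3 gained H3K36me3 regions (0.141% against 0.175%) and a lost one near 16 (0.750% against 0.361%). H3K9me3 had a gained region near 2 (0.0938% against 0.228%) and a lost one near 9 (0.422% against 0.315%). The bar plot shows H4K20me1 as the mark with the widest gap between gained and lost H3K36me3 regions.

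**Figure D3:**
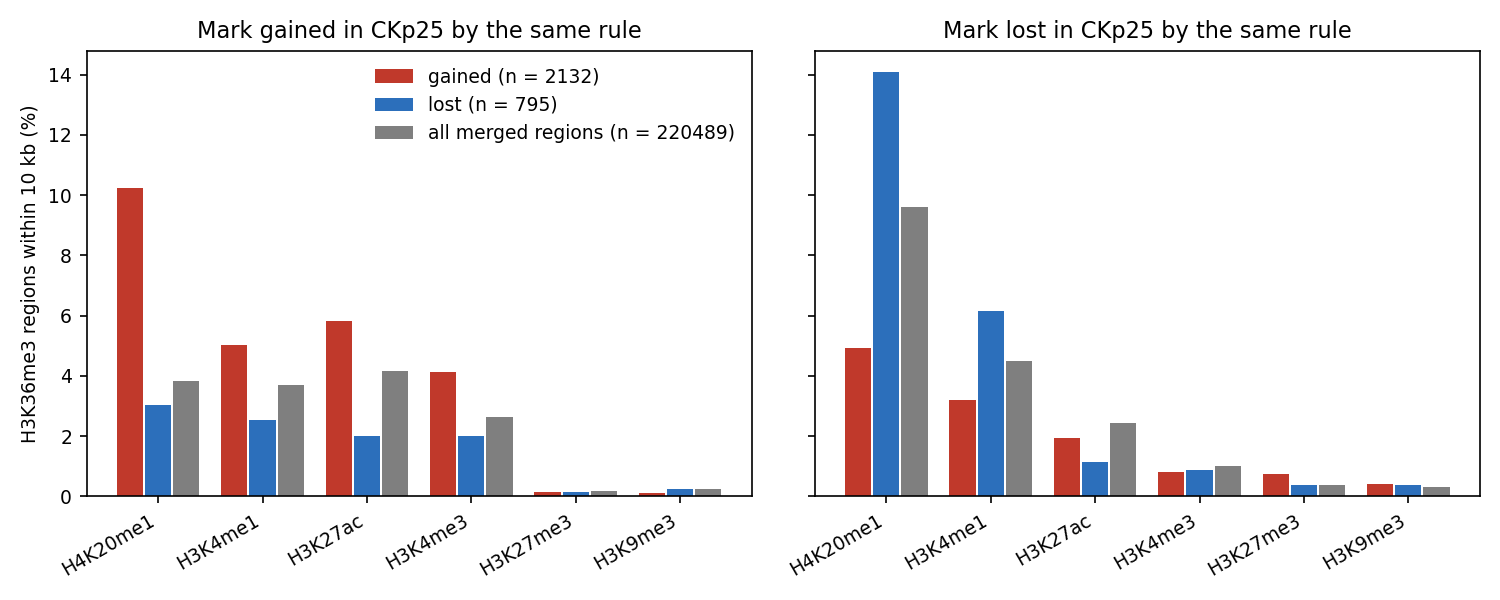
Share of H3K36me3 regions (vertical axis, %, from 0) with a region of another mark within 10000 bases, where that mark was gained (left) or lost (right) in CKp25 by the same rule; bars are gained (red), lost (blue) and all merged H3K36me3 regions (grey). For H4K20me1 the red bar is 10.2% on the left and 4.92% on the right, and the blue bar 3.02% and 14.1%.

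The 219 gained regions with no CK peak within 5000 bases stand apart from domains already marked in CK. H4K20me1 was at 24.2% and 24.7% of them in CK and at 34.2% and 48.4% in CKp25. In 21 of them (9.59%, interval 6.03 to 14.3) H4K20me1 had a peak in both CKp25 lists only, and in 0 of them in both CK lists only. H3K27me3 was at 6.39% and 4.11% in CK and 3.20% in each CKp25 list. H3K9me3 was at 3.65% in each CK list and at 5.48% and 7.76% in CKp25. At 3 regions (1.37%, interval 0.283 to 3.95) it had a peak in both CKp25 lists only, against 0.109% of all merged regions. At 0 regions it had a peak in both CK lists only, against 0.143%. These counts are too small to read as a contrast. Both repressive marks were more frequent there than at gained regions as a whole in each list. Gained regions of other marks lay within 10000 bases of 37 of them for H4K20me1 (16.9% against 3.83% of all merged regions), of 25 for H3K27ac (11.4% against 4.15%), of 23 for H3K4me3 (10.5% against 2.62%) and of 16 for H3K4me1 (7.31% against 3.71%). An H3K4me3 peak in each of the 4 lists lay within 10000 bases of 143 of them (65.3%), against 54.0% of all gained regions and 50.7% of the regions in all 4 H3K36me3 lists. Most of these regions thus lay near a promoter-type mark that was listed in both genotypes.

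Gained regions also lay close to one another. Within 10000 bases of another gained region were 439 of them (20.6%), forming 169 chains, while 40 of the lost regions (5.03%) formed 18. The gained set is 2.68 times larger, which by itself raises such a share, and how much of the gap this accounts for was not tested. Chains of at least 5 numbered 12 among the gained regions, with 80 members, and 1 among the lost regions.

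The longest chain held 13 gained regions, at chr16:35833046-35867274. H3K36me3 peaks covered 0.830% of its span in the CK 2-week list and 0.885% in the CK 6-week list, and 44.8% and 53.6% in the CKp25 lists, which follows from the rule. H4K20me1 peaks, which the rule did not use, covered 0% in both CK lists and 16.4% and 21.3% in the CKp25 lists.

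The chain of 8 at chr6:121201857-121221530 held the strongest gained region. Over its span H4K20me1 covered 0% in both CK lists and 57.9% and 67.2% in the CKp25 lists, nearly as much as H3K36me3 itself, which covered 67.5% and 67.4% there. Within 10000 bases of its ends H3K4me3 had peaks in every list, and H3K4me1 and H3K27ac each had a region gained by the same rule. The chain of 8 at chr17:79252851-79278730 had H4K20me1 coverage of 0% in both CK lists and of 31.6% and 35.4% in CKp25. Its H3K36me3 coverage went from 9.59% and 15.96% in CK to 77.0% and 75.1% in CKp25.

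A chain of 7 at chr11:78779978-78791248 had the highest H4K20me1 coverage at 6 weeks of the 12 chains, 71.7%, with 50.3% at 2 weeks and 0% in both CK lists. Another chain of 7, at chr4:40154333-40178454, had 24.5% and 31.1% in CKp25 and 0% in both CK lists. In all 5 of these chains H4K20me1 was therefore listed only in CKp25, and more of the span was covered at 6 weeks than at 2 weeks. The whole CKp25 H4K20me1 list also covered more at 6 weeks, 223 Mb against 208 Mb at 2 weeks, and its part was not tested.

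In the remaining 7 chains, of 5 or 6 regions, H4K20me1 coverage at 6 weeks in CKp25 ranged from 0% at chr1:182606180-182618902 to 23.3% at chr19:29453351-29463193. In 4 of these 7, H4K20me1 had no peak in the CKp25 2-week list. The CK lists were at 0% except for 1.48% at 6 weeks at chr7:106808163-106825500. Over the 12 chains both CKp25 lists exceeded both CK lists in 8, and in 0 chains did they fall below. The median H4K20me1 coverage was 0% in both CK lists and 8.14% and 16.5% in CKp25. The single chain of 5 lost regions, at chr12:110896708-110913704, showed the opposite: H4K20me1 covered 43.5% and 38.6% of it in CK and 7.08% and 17.5% in CKp25.

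**Figure D4:**
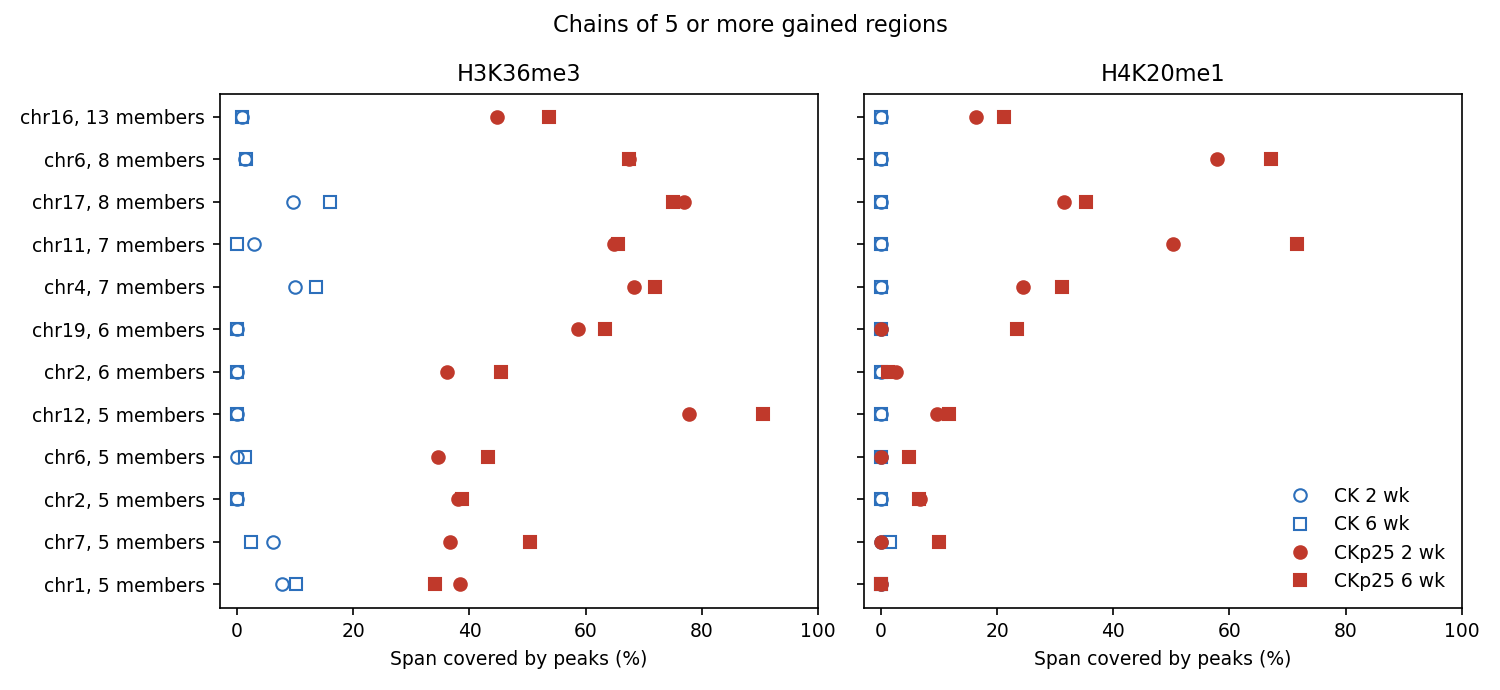
Share of the span covered by peaks (horizontal axes, %) of H3K36me3 (left) and H4K20me1 (right) for the 12 chains of at least 5 gained regions, with CK as open blue and CKp25 as filled red symbols (circles 2 weeks, squares 6 weeks). The rule fixes the gap on the left; on the right the CKp25 points lie above 0 at both times in 8 chains.

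The surroundings of the chains, their span with 10000 bases on each side, differed less in the promoter marks. H3K4me3 had a peak in all 4 lists around 11 of the 12 chains, and more bases were covered in both CKp25 lists than in both CK lists around 8. The median coverage was 1835 and 1910 bases in CK and 2853 and 2932 bases in CKp25. H3K27ac likewise covered more bases in both CKp25 lists around 8 chains and had a region gained by the same rule around 3. H3K27me3 went the other way, with fewer bases in both CKp25 lists than in both CK lists around 6 chains and more around 0. The H3K4me3 lists as a whole covered 76.9 and 83.5 Mb in CK and 85.7 and 90.4 Mb in CKp25, and the H3K27me3 lists 45.0 and 55.8 Mb against 33.9 and 44.8 Mb, so both differences also run along with the lengths of the lists, and their part in it was not tested.

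**Figure D5:**
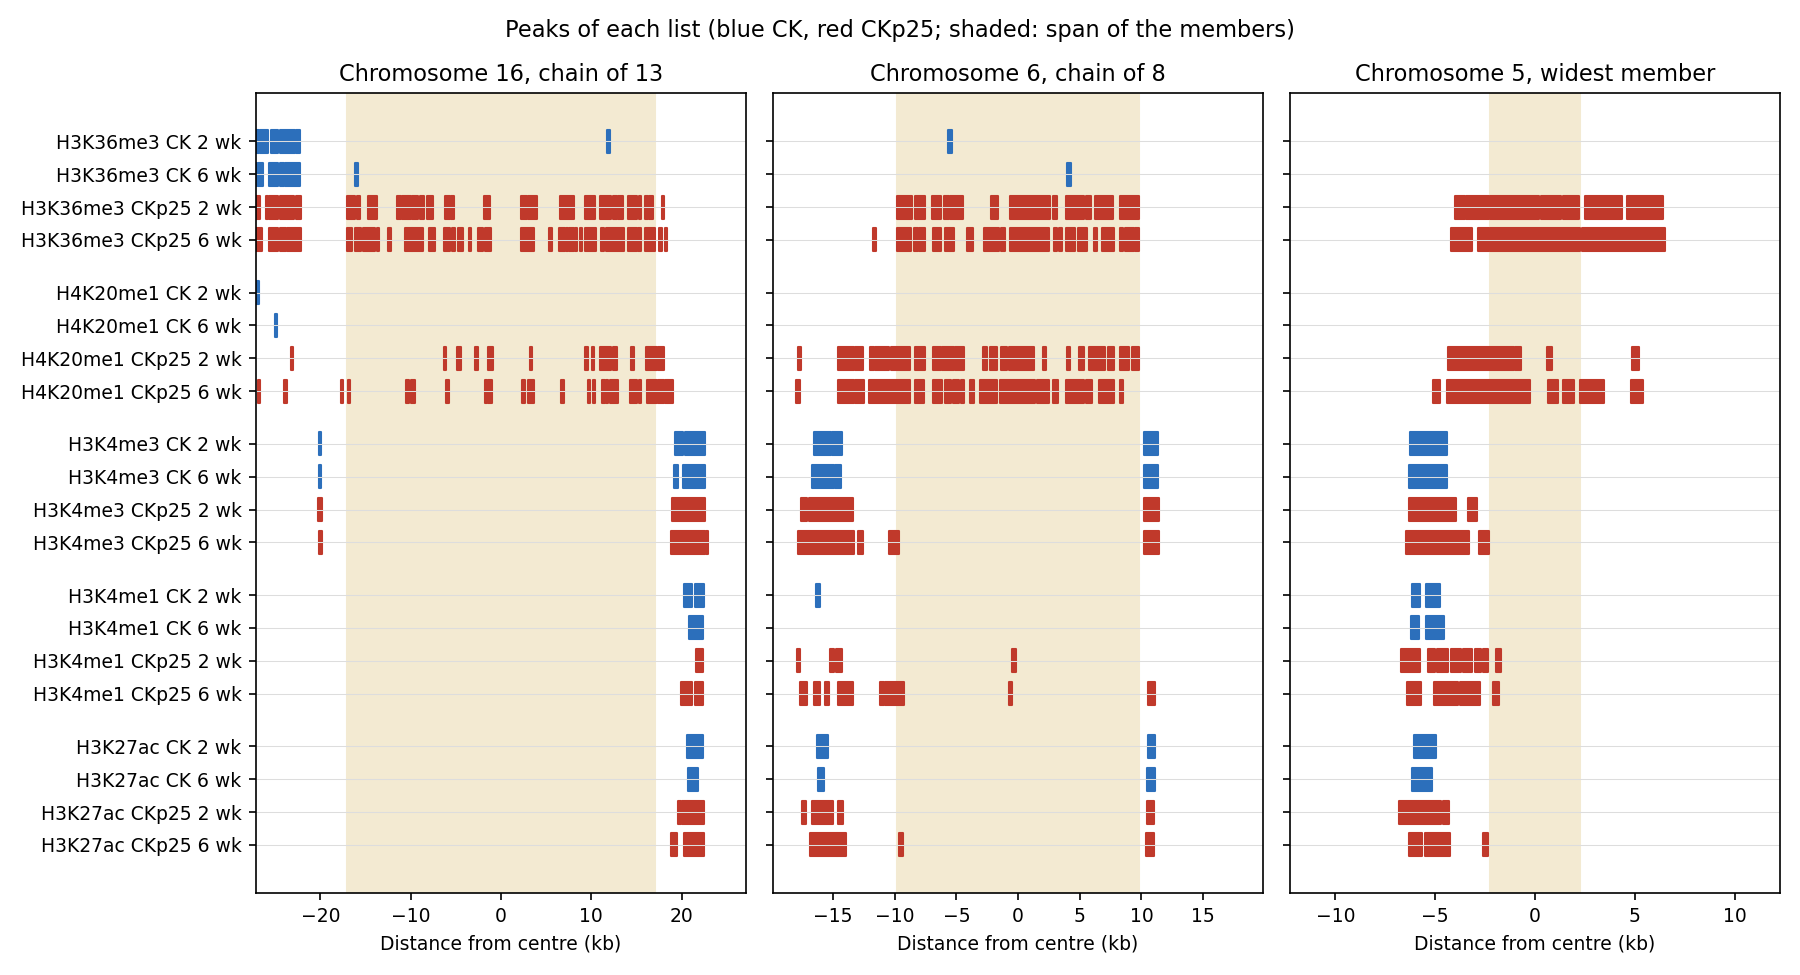
Peaks of 5 marks in the 4 lists (rows; blue CK, red CKp25) against distance from the centre of the locus (kb), for the chain of 13 on chromosome 16, the chain of 8 on chromosome 6 and the widest gained region on chromosome 5, with 10000 bases on each side. Within the shaded spans H3K36me3 and H4K20me1 peaks are nearly all red, while each locus has an H3K4me3 peak within 10000 bases in all 4 lists, with some further H3K4me3 peaks in CKp25 alone.

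The gained region with the highest values in both lists, chr6:121211011-121214326, is 3316 bases wide. Its −log10 p was 16.9 in the CKp25 2-week list and 19.0 in the 6-week list, with fold enrichments of 4.85 and 5.05. H4K20me1 had no peak there in CK and had values of 7.96 and 14.7 in CKp25, and H3K4me1 had none in CK and 3.55 and 3.75 in CKp25. H3K27me3 had a peak in the CK 6-week list (5.06) and the CKp25 2-week list (3.49). Even this region was far from the top of its lists, since 22784 peaks of the 2-week list and 13704 of the 6-week list had higher values.

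Of the 10 gained regions with the highest smaller value of the 2 lists, 6 had an H4K20me1 peak in both CKp25 lists and neither CK list, 1 had one in all 4 lists and 3 had no peak of any other mark. Of these 10, 4 had no CK peak within 5000 bases and 5 belonged to chains of at least 5. The second, chr12:27134382-27135034, had H3K36me3 values of 14.7 and 15.5 and H4K20me1 values of 5.15 and 5.55 in CKp25 only, and lay 21343 bases from the nearest CK peak. Others with H4K20me1 in CKp25 only were chr17:79269733-79270695 (H3K36me3 10.6 and 11.6) and chr4:40171903-40172856 (10.6 and 10.8). The region with H4K20me1 in all 4 lists was chr11:88869544-88871604, where H3K36me3 had 14.7 and 10.9. H4K20me1 had values of 6.66 and 5.29 there in CK and 12.6 and 18.2 in CKp25. The 3 regions with no other mark were chr5:77308734-77309113 (11.0 and 11.6), chr7:105378812-105379404 (10.7 and 15.8) and chr2:62440940-62441588 (10.6 and 15.8). A further region shared the smaller value of the tenth, 10.6, and was left out by the order of position.

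The widest gained region, chr5:121265872-121270378, is 4507 bases wide and lay 107098 bases from the nearest CK peak. It belongs to a chain of 3 that spans chr5:121263942-121274640, in which H3K36me3 covered 0% in both CK lists and 88.7% and 95.8% in the CKp25 lists. H4K20me1 covered 0% of that span in both CK lists and 37.5% and 63.3% in CKp25. H3K9me3, the heterochromatin mark, was listed in every group, at 12.1% and 16.1% of the span in CK and 17.3% and 13.8% in CKp25. The next widest was chr3:142230476-142234685, of 4210 bases, with H3K36me3 values of 10.1 and 14.0. H4K20me1 was listed there in the CKp25 6-week list (7.03) and in no other list of that mark. H3K27me3 was listed there in the CK 2-week list alone (4.37) and H3K9me3 in the CK 6-week list alone (4.36).

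At 2 gained regions 4 other marks had peaks in both CKp25 lists only. At chr16:23612564-23614183, which lay 117770 bases from the nearest CK peak, H3K36me3 had values of 14.0 and 9.63. In CKp25 only, H3K4me3 had 187 and 295, H3K27ac 4.99 and 4.49, H3K4me1 7.59 and 13.1, and H4K20me1 11.2 and 11.4. At chr11:58015020-58015741, 4478 bases from the nearest CK peak, H3K36me3 had 7.58 and 8.42. The H3K4me3 values there were 11.9 at 2 weeks and 266 at 6 weeks, and H4K20me1 had 10.5 and 7.23. Within the chain on chromosome 5, chr5:121263942-121265813 had 3 such marks: H3K4me3 (207 and 267), H3K4me1 (8.17 and 6.80) and H4K20me1 (11.2 and 13.9). An H3K4me3 peak reaching into a region takes its value from the whole peak, so a high value can come from bases outside the region. The map of the chromosome 5 locus shows this. CK had an H3K4me3 peak there too, ending at -4.39 kb (2 weeks) and -4.42 kb (6 weeks), just before the region's start at -4.18 kb. The CKp25 peaks covered the same stretch and ran into the region, to -3.96 and -3.29 kb. The values of 207 and 267 therefore do not describe a peak that CK lacks.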

How the data were processed

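Each mark had 1 narrowPeak list for each genotype and time, called against whole cell extract. Per the submitters' processing notes, Bowtie, Picard and MACS2 were used with the builds NCBIM37 and mm9. The notes state no role for each tool. The deposited lists, in the column order of the narrowPeak format, give a fold enrichment ratio and a −log10 p for each peak. The q column was −1 throughout. Overlapping or touching H3K36me3 peaks of the 4 lists were merged, and each region took the best peak of each list. Another mark was counted where at least 1 base overlapped. Chains join gained regions at most 10000 bases apart. Named regions are the 10 with the highest smaller −log10 p, the 5 widest, the 5 with the most other marks in CKp25 only, the 5 chains with the most members and 3 on each side of the threshold; other chains were named after their values were seen. The members and lists were chosen with earlier results of these data known. Intervals are exact binomial (Clopper-Pearson, 95%). Region counting was checked on simulated peaks. Python 3.11.15, pandas 2.3.3, numpy 2.4.6 and scipy 1.17.1 were used. Alternatives covered thresholds, merging, list length, overlap and chain distance. A planned comparison of RNA at genes holding these regions was not run, since regions could not be tied to genes.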

Additional observations from a re-analysis of the deposited data

Results flagged for a closer look

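The share of gained H3K36me3 regions with an H3K9me3 peak differed in sign between the times. CKp25 minus CK was -0.0938 percentage points at 2 weeks (35 against 37 regions) and 0.328 percentage points at 6 weeks (46 against 39 regions). The sign differed in the same way over all merged regions, so it is not particular to the gained ones. There the shares were 1.44% in CKp25 and 1.83% in CK at 2 weeks, and 2.25% and 1.93% at 6 weeks. The lists were also of different lengths, with 70236 H3K9me3 peaks in CKp25 and 90930 in CK at 2 weeks, and 91321 and 92790 at 6 weeks. Each group has 1 list, and the difference between the times was not tested.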

How the results depend on the processing

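With 1 list per group no replicate could be left out. No paired analysis was possible because no group has a numbered replicate. The planned limit on the q column was not run, because that column holds no q values. Gained regions outnumbered lost ones under every setting run, while both counts moved: 18 and 6 at a threshold of 10, 9284 and 3905 with no threshold, 577 and 175 with peaks merged across 1000 bases, 219 and 28 with 5000 bases of clearance, 6925 and 4775 at equal list length without threshold, 16262 and 10832 from the 2-week lists alone, and 19226 and 11069 from the 6-week lists alone. The setting of equal length with the threshold kept (2260 and 1134) was chosen after seeing the data. The share in chains was 14.8% across 5000 bases and 38.8% across 50000 bases.

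The share of gained regions with H4K20me1 in both CKp25 lists only was 3.71% when 50% of a region had to be covered, 3.52% with H4K20me1 peaks of at least 5, 3.08% for members from lists of equal length, 9.59% for members with clearance and 50% for the 18 members at a threshold of 10; it exceeded the opposite pattern in each. At a threshold of 10 the shares were 5.56% for H3K4me3, 22.2% for H3K4me1 and 0% for H3K27ac, H3K27me3 and H3K9me3. With clearance they were 1.83% for H3K4me3, 3.65% for H3K4me1, 0% for H3K27me3 and 1.37% for H3K9me3. Requiring 50% cover gave 0% for H3K27me3 and H3K9me3, and peaks of at least 5 gave 0.0469% for H3K9me3. The cause of these shifts was not tested. The threshold of 10 kept 18 regions and the clearance 219. The 50% cover and the peaks of at least 5 kept all 2132, and equal list length gave 6925. Counts of 18 or fewer regions give wide intervals, and unknown read depth limits what a missing peak shows.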
